A study of Mus musculus with 6 samples.

Results

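Chemokines and interleukins are the secreted proteins by which immune, vascular and connective tissue cells call to one another, and their genes were followed here in the neonatal mouse heart. The members were all probes of the array whose gene symbol begins with Ccl, Cxcl, Ccr, Cxcr or Il and a digit, or with Cx3c. There were 182 such probes with 131 gene symbols among 25697 probes with 18138 symbols. Symbols were taken as the array gives them, so a few are older names, and these are given with their current one.

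The study asked what happens when the human SRY gene, the male-determining gene of the Y chromosome, is switched on throughout the body. Total RNA from hearts of 3 hSRY-ON and 3 hSRY-OFF mice, all male, of the FVB strain (FVB/N in the methods) and at postnatal day 6, was hybridized to 1 Illumina MouseRef-8 BeadChip array each. In hSRY-ON mice a single-copy transgene, in which the CAG promoter drives human SRY together with EGFP, had been recombined by Cre that the oocyte of a Ddx4-Cre mother supplied, and mice that had inherited Ddx4-Cre itself were not chosen. The sources differ on the controls, which are described in the methods as carrying the unrecombined transgene and elsewhere as littermates with Ddx4-Cre alone or with neither transgene, so it is uncertain whether the hearts compared with active SRY held an unrecombined transgene or none. All mice were male and carried their own Sry. The array has no probe for the human transgene, so the labels could not be checked against it.

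Chemokines draw cells along a gradient, and they act through receptors that cross the membrane many times. Interleukins act through receptors built from several chains, many of which are shared between ligands and signal through Janus kinases to STAT factors. In the heart such ligands are made by macrophages, fibroblasts, endothelium and muscle cells, and they are known for placing resident macrophages, guiding coronary vessels and calling white cells after injury.

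A probe was tested when it stood above background, with a detection p-value under 0.05, on at least 3 of the 6 arrays. Of the 182 member probes, 59 probes of 44 genes passed (32.4%), against 50.5% of all probes. On no array were 104 member probes above background, 19 were above it on 1 or 2 arrays, and 43 on all 6. A probe that passed through only one group had to differ, so counts over the tested probes describe those probes and not the whole families. Interleukin receptor chains had the most tested probes, 26 of 69, followed by CC chemokines with 11 of 24, interleukins with 9 of 38 and CXC chemokines with 6 of 18. Chemokine receptors were the least often above background, with 3 of 25 probes tested (12%).

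**Figure D1:**
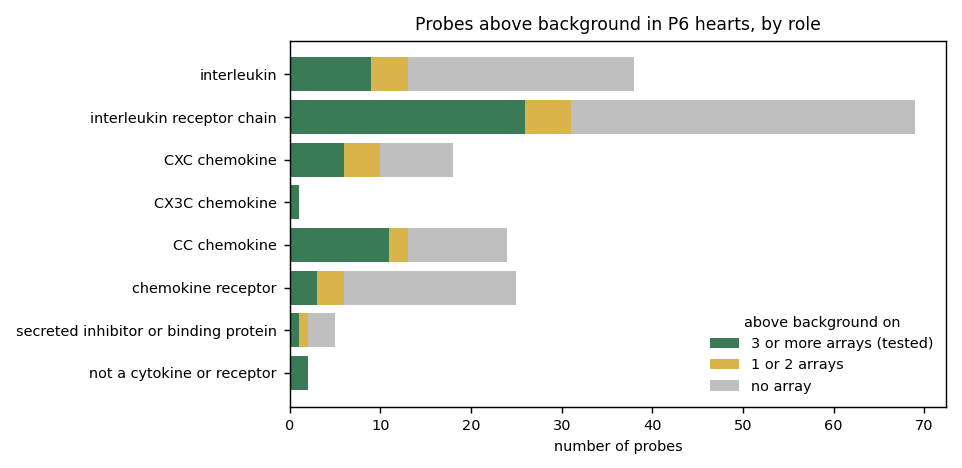
Number of member probes (x axis) in each role (y axis), divided by how many of the 6 arrays they were above background on. Of 25 chemokine receptor probes, 3 were above background on at least 3 arrays, whereas 26 of 69 interleukin receptor chain probes were.

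Values are given below as normalized log2 intensities, on which a difference of 1 is a doubling, and fold changes are hSRY-ON against hSRY-OFF. A probe is called differentially expressed at an adjusted p under 0.05 from limma, adjusted over all 12970 tested probes. Of the 59 tested member probes, 25 were differentially expressed (42.4%), beside 27.5% of all tested probes. Higher in hSRY-ON hearts were 14 probes of 11 genes (23.7%, beside 13.8% of all) and lower were 11 probes of 9 genes (18.6%, beside 13.7% of all). The groups did not overlap in 29 member probes (49.2%), beside 45.2% of all tested probes. The hSRY-ON hearts were above in 17 of the 59 and below in 12. Over all 12970 tested probes they were above in 23.6% and below in 21.6%. The median log2 fold change of the members was 0.01 and that of all tested probes -0.00, while the median size, without sign, was 0.44 for members and 0.30 for all. With no probe filter, 18 of all 182 member probes passed (9.89%), beside 12.4% of all 25697 probes, so the larger share among members was seen over the tested probes and not over all of them. Near the threshold, Il3ra had an adjusted p of 0.0476 and Cx3cl1 one of 0.0537.

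**Figure D2:**
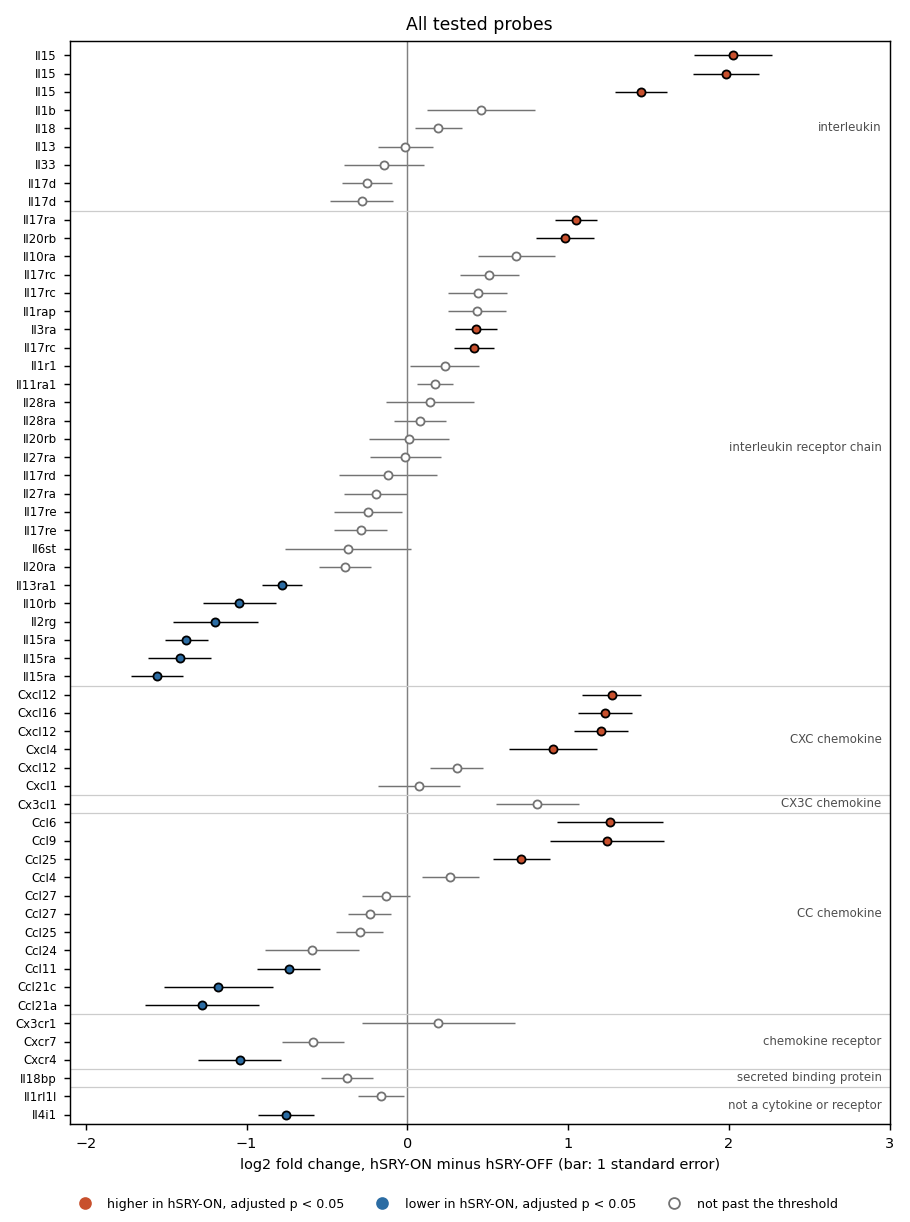
Log2 fold change (x axis, hSRY-ON minus hSRY-OFF) of each of the 59 tested member probes (y axis, ordered by role), with bars of 1 standard error. The values run from -1.56 for an Il15ra probe to 2.03 for an Il15 probe.

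Il15, a cytokine that sustains natural killer cells and memory T cells and is also made by muscle, had the largest increase of the members, in all 3 of its probes. The first probe read 6.59, 6.4 and 6.31 in the hSRY-OFF hearts and 8.81, 8.68 and 7.88 in the hSRY-ON hearts, a log2 fold change of 2.03 (SE 0.24, limma adjusted p = 0.00121). The second probe read 10.14, 10.66 and 10.56 against 12.58, 12.65 and 12.07, a log2 fold change of 1.98 (SE 0.20, adjusted p = 0.000736). The other probe read 8.48, 8.56 and 8.16 against 9.99, 9.96 and 9.61, a log2 fold change of 1.45 (SE 0.16, adjusted p = 0.000946). In all 3 probes every hSRY-ON heart was above every hSRY-OFF heart, and hSRY-ON replicate 3 was the lowest of its group. On the linear scale these are increases of 4.07-fold, 3.95-fold and 2.74-fold.

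Il15ra encodes the chain that binds interleukin 15 and presents it to neighbouring cells, and it was lower in hSRY-ON hearts in the 3 of its probes that were tested. One probe read 7.11, 7.23 and 7.25 in hSRY-OFF and 5.62, 5.85 and 5.99 in hSRY-ON hearts, a log2 fold change of -1.37 (SE 0.14, limma adjusted p = 0.000595). Another read 7.11, 7.57 and 7.37 against 5.75, 6.0 and 5.64, a log2 fold change of -1.56 (SE 0.16, adjusted p = 0.000765). The remaining tested probe read 6.96, 6.91 and 6.58 against 5.39, 5.75 and 5.07, a log2 fold change of -1.41 (SE 0.20, adjusted p = 0.0021), and it was above background in 1 of the hSRY-ON hearts. No hSRY-ON heart reached the lowest hSRY-OFF heart in any of them. A further Il15ra probe was above background on 1 array only and was not tested.

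Il2rg, the common gamma chain through which interleukin 15 and several other interleukins signal, read 7.06, 7.60 and 7.44 in hSRY-OFF and 5.77, 6.74 and 6.0 in hSRY-ON hearts. All hSRY-ON hearts were below the hSRY-OFF hearts, with replicate 2 the nearest, and the log2 fold change was -1.19 (SE 0.26, limma adjusted p = 0.0141). Il2rb, the remaining chain of this receptor, was above background in 1 hSRY-OFF heart and was not tested. Among the genes downstream, Jak3, the kinase that binds the common gamma chain, was lower in both tested probes, by a log2 fold change of -0.55 and -0.51 (adjusted p = 0.0205 and 0.0234). One Stat5a probe, for a transcription factor activated through this receptor, read 8.48, 8.06 and 8.37 against 7.30, 7.05 and 7.49, a log2 fold change of -1.02 (adjusted p = 0.00403), and its other probe had -0.75 (adjusted p = 0.0696).

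**Figure D3:**
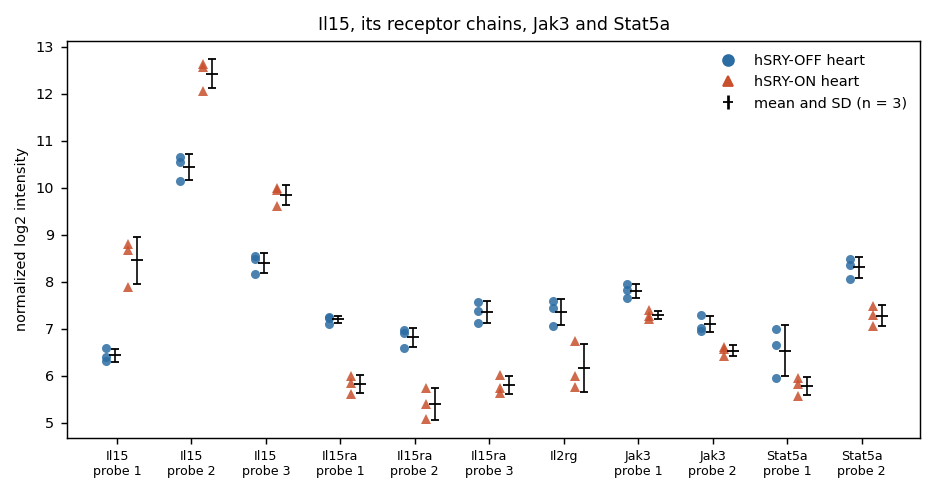
Normalized log2 intensity (y axis) of Il15, its receptor chains, Jak3 and Stat5a probes (x axis) in each heart, with mean and SD (n = 3 per group). The 3 Il15 probes lie higher in hSRY-ON hearts and the 3 tested Il15ra probes lower, with no overlap between the groups.

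No promoter of Il15 was at hand, and the promoter of Il15ra is shown because all 3 tested probes of that gene fell. The window covers 250 bases before to 50 after the first of 2 RefSeq start sites (GRCm38.p6), on the plus strand at chr2:11705043-11705342, and capitals mark matches to GAGGAA on either strand, the core letters of PU.1-type ETS sites of white cells.
Il15ra: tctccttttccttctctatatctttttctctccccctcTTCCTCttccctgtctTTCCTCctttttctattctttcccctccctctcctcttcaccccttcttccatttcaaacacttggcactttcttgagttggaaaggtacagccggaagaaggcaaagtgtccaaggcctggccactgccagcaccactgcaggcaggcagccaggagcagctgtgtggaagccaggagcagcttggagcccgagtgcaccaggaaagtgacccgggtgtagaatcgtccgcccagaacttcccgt
The 2 matches begin 212 and 196 bases before the start, both on the opposite strand. In all, 3 motifs were searched on both strands: AACAAT, the core letters bound by SRY and SOX proteins, GAGGAA, and GAAA followed after any 2 bases by GAAA, the letters of interferon-response elements. They stood in 10.7%, 28.3% and 3.44% of 32851 promoter windows. Among 9 windows of members that rose, 1, 1 and 0 held them, and among 7 windows of members that fell, 0, 3 and 0. Such matches describe letters, not bound sites.

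Of the other interleukins, none was differentially expressed. Il17d, a member of the interleukin 17 family, had log2 fold changes of -0.28 and -0.25 in its 2 probes, Il33, an alarm signal of barrier cells, had -0.15, and Il18 had 0.19. Il1b, a central inflammatory cytokine, was above background in 1 hSRY-OFF and 2 hSRY-ON hearts, with a log2 fold change of 0.46 (adjusted p = 0.348). On no array were the probes for Il6, Il1a, Il4, Il5, Il7, Il17a or Il17f above background. For such genes the arrays did not show a level, at the depth of this signal.

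CXC chemokines that were differentially expressed were all higher in hSRY-ON hearts, 4 probes of 3 genes among 6 tested. This is 66.7%, beside 13.8% up of all tested probes. Cxcl16, a membrane-bound chemokine of macrophages and endothelium, read 8.37, 8.44 and 8.82 in hSRY-OFF and 9.86, 9.90 and 9.55 in hSRY-ON hearts, a log2 fold change of 1.23 (SE 0.17, limma adjusted p = 0.00189). The 3 hSRY-ON hearts lay above all hSRY-OFF hearts. Its receptor gene Cxcr6 was above background on no array.

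Cxcl12, which holds progenitor cells in place and guides vessels, had 3 tested probes. One read 9.89, 9.62 and 9.92 against 11.13, 11.21 and 10.70, a log2 fold change of 1.20 (SE 0.17, limma adjusted p = 0.00229). Another read 9.87, 9.89 and 10.17 against 11.27, 11.55 and 10.92, a log2 fold change of 1.27 (SE 0.18, adjusted p = 0.00245). The remaining one read 12.07, 12.20 and 12.18 against 12.39, 12.78 and 12.21, a log2 fold change of 0.31 (SE 0.16, adjusted p = 0.202). The groups did not overlap in any of the 3, but that last probe did not pass the threshold, and the probes of this gene differ in size of change. The other Cxcl12 probes, 2 in number, were above background on no array.

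Cxcr4, the receptor of Cxcl12, was lower in hSRY-ON hearts. It read 8.14, 7.77 and 7.23 in hSRY-OFF and 6.35, 7.01 and 6.64 in hSRY-ON hearts, a log2 fold change of -1.04 (SE 0.26, limma adjusted p = 0.0217). The groups did not overlap, with hSRY-ON replicate 2 and hSRY-OFF replicate 3 nearest. When either hSRY-OFF heart 1 or 2 was left out, or else hSRY-ON heart 1 or 3, the adjusted p was between 0.0572 and 0.0701. Cxcr7 (now Ackr3), which takes up Cxcl12 without classical signalling, had a log2 fold change of -0.59 (adjusted p = 0.056). Cx3cr1, the fractalkine receptor of resident macrophages, read 6.35, 6.93 and 7.35 against 7.63, 5.92 and 7.66, so that hSRY-ON replicate 2 was the lowest of all 6 hearts and the groups overlapped. Its ligand Cx3cl1 had a log2 fold change of 0.81 (adjusted p = 0.0537). Probes for Ccr1, Ccr2, Ccr3, Ccr7 and Cxcr3, and for Il8ra and Il8rb (now Cxcr1 and Cxcr2), were above background on no array.

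Cxcl4 (now Pf4), a platelet and macrophage chemokine, read 6.48, 6.74 and 5.96 in hSRY-OFF and 7.58, 7.53 and 6.77 in hSRY-ON hearts, a log2 fold change of 0.90 (SE 0.27, limma adjusted p = 0.0442). The lowest hSRY-ON heart, replicate 3, stood just above the highest hSRY-OFF heart. When either hSRY-OFF heart 1 or 3 was left out, or else hSRY-ON heart 1 or 2, the adjusted p was between 0.0936 and 0.13. With all hearts kept, the limma adjusted p was 0.0767 without normalization between arrays and 0.0792 with no probe filter. Its promoter window is shown because, of the differentially expressed genes with a window (14 of 20), it alone matched the SRY and SOX letters AACAAT, on the opposite strand, and it held GAGGAA as well (GRCm38.p6, plus strand, chr5:90772185-90772484, matches in capitals).
Cxcl4: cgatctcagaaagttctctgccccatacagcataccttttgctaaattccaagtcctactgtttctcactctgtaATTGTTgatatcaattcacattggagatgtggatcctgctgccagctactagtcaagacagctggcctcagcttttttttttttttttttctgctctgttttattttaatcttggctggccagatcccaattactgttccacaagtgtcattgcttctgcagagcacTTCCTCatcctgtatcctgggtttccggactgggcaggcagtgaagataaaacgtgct
The AACAAT match begins 175 bases before the start site and the GAGGAA match 8 bases before it. Cxcl1, a neutrophil chemokine, had a log2 fold change of 0.07 (adjusted p = 0.859).

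Among CC chemokines, 3 probes rose and 3 fell of 11 tested (27.3% each way, beside 13.8% and 13.7% of all tested probes). Ccl6 and Ccl9, neighbouring chemokine genes of macrophages, rose together. Ccl6 read 5.68, 6.28 and 6.06 in hSRY-OFF and 6.63, 7.99 and 7.19 in hSRY-ON hearts, a log2 fold change of 1.26 (SE 0.33, limma adjusted p = 0.0267). Ccl9 read 7.92, 8.49 and 8.39 against 9.16, 10.37 and 9.0, a log2 fold change of 1.24 (SE 0.36, adjusted p = 0.0369). In both genes hSRY-ON replicate 2 was the highest heart and the groups did not overlap. Ccl6 passed the threshold without the second hSRY-OFF heart and without the first or second hSRY-ON heart, and lost it when hSRY-OFF replicate 1, hSRY-OFF replicate 3 or hSRY-ON replicate 3 was left out (adjusted p 0.0529 to 0.0877). Ccl9 lost it without any one of the hSRY-OFF hearts or without hSRY-ON replicate 1 (adjusted p 0.0504 to 0.113).

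No annotated gene lies between Ccl6 and Ccl9 in the RefSeq annotation of GRCm38.p6, and both windows are shown because the genes rose together. Capitals mark runs of 10 or more bases that the windows share, a marking chosen after the sequences had been seen. Both lie on the minus strand of GRCm38.p6, Ccl6 at chr11:83593038-83593337 and Ccl9 at chr11:83578587-83578886.
Ccl6: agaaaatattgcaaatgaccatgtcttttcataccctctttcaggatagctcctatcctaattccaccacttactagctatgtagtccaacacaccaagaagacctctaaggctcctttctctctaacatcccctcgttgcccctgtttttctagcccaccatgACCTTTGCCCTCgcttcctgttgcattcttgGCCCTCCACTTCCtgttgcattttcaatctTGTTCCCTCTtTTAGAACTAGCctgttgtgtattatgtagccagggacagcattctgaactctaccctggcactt
Ccl9: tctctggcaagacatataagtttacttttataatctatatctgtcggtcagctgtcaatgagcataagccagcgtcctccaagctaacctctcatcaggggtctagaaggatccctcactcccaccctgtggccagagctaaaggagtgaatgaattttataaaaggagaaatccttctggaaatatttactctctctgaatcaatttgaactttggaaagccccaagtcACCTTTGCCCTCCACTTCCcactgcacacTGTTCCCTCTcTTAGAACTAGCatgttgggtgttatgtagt
The Ccl9 window holds the letters as runs of 19, 10 and 11 bases, and the Ccl6 window as runs of 12, 13, 10 and 11. Neither window held a searched motif.

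Ccl25, a thymic and gut chemokine, read 5.84, 5.87 and 5.43 in hSRY-OFF and 6.17, 6.62 and 6.48 in hSRY-ON hearts in one probe, a log2 fold change of 0.71 (SE 0.18, limma adjusted p = 0.0216). Its other probe had a log2 fold change of -0.30 (adjusted p = 0.17), so the probes of this gene disagree in sign. Without hSRY-ON replicate 2 or 3 the limma adjusted p of the first was 0.0655 and 0.0583. With all hearts kept it was 0.235 without normalization between arrays and 0.0596 without background correction.

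Ccl21a and Ccl21c, near-identical copies of the lymphatic chemokine that calls T cells and dendritic cells, were lower in hSRY-ON hearts. The Ccl21a probe read 9.05, 9.49 and 9.80 in hSRY-OFF and 7.87, 7.65 and 8.98 in hSRY-ON hearts, a log2 fold change of -1.28 (SE 0.35, limma adjusted p = 0.0329). The Ccl21c probe read 8.0, 8.34 and 8.36 against 6.81, 6.48 and 7.89, a log2 fold change of -1.18 (SE 0.34, adjusted p = 0.0377). In both, hSRY-ON replicate 3 lay close to the hSRY-OFF hearts and the others lay well below. Either probe may also read the other copy, so they are not separate evidence. Ccl21a passed the threshold without hSRY-OFF replicate 1 or hSRY-ON replicate 3 and lost it without any other heart (adjusted p 0.0831 to 0.0985), and Ccl21c passed it only without hSRY-ON replicate 3 (otherwise 0.0649 to 0.109). Their receptor gene Ccr7 was above background on no array.

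Ccl11, the eotaxin that calls eosinophils, read 5.49, 5.90 and 5.89 in hSRY-OFF and 5.09, 5.31 and 4.67 in hSRY-ON hearts. It was above background on all hSRY-OFF arrays and on no hSRY-ON array, so it was at least 1.35-fold lower (adjusted p = 0.0295), a bound set against the lowest signal above background on each array. Without hSRY-ON replicate 1 or 3 the limma adjusted p was 0.0665 and 0.0679. The tested probe met the filter through its hSRY-OFF hearts alone, so its fall is not separate support. The other Ccl11 probe was above background on no array. Ccl27 (now Ccl27a), a skin chemokine, had log2 fold changes of -0.23 and -0.13 in its 2 probes, and neither passed the threshold.

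**Figure D4:**
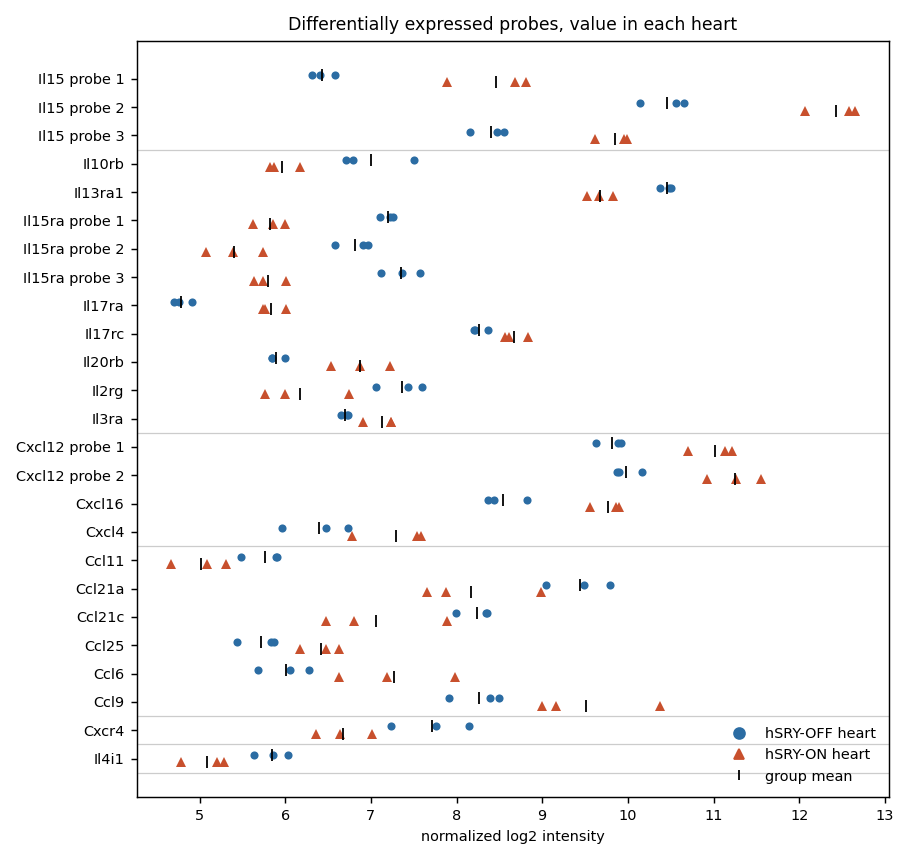
Normalized log2 intensity (x axis) in each heart of the 25 differentially expressed member probes (y axis, grouped by role), with a tick at each group mean. The hSRY-ON and hSRY-OFF hearts do not overlap in any of them, and in Il15 the groups are the farthest apart.

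Of the interleukin receptor chains, 4 probes rose and 6 fell among 26 tested, and 3 of those that fell were Il15ra. These are 15.4% up and 23.1% down, beside 13.8% and 13.7% of all tested probes. Il17ra, the shared receptor chain of interleukin 17, was above background on no hSRY-OFF array and on every hSRY-ON array. It read 4.70, 4.76 and 4.91 against 5.76, 6.01 and 5.74 and was at least 1.33-fold higher (limma adjusted p = 0.00139). Il17rc, its partner chain, had 3 probes with log2 fold changes of 0.41 (SE 0.13, adjusted p = 0.046), 0.51 (adjusted p = 0.0773) and 0.44 (adjusted p = 0.116). The first read 8.21, 8.36 and 8.20 against 8.84, 8.57 and 8.62, without overlap, and lost the threshold without any one of the 6 hearts (adjusted p 0.0605 to 0.149) and, with all hearts kept, in 4 of 10 other settings (up to 0.626 without normalization between arrays). The ligand genes Il17a and Il17f were above background on no array.

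Il13ra1, a chain of the receptors for interleukins 4 and 13, read 10.37, 10.48 and 10.50 in hSRY-OFF and 9.52, 9.66 and 9.83 in hSRY-ON hearts. The hSRY-ON hearts were all lower, with a log2 fold change of -0.78 (SE 0.13, limma adjusted p = 0.00395). Il10rb, a chain shared by interleukin 10 and the lambda interferons, read 6.79, 7.51 and 6.72 against 5.87, 5.83 and 6.17, a log2 fold change of -1.05 (SE 0.23, adjusted p = 0.0125). The hSRY-ON hearts were again all lower. Il10ra, the chain specific to interleukin 10, had a log2 fold change of 0.68 that did not pass the threshold (adjusted p = 0.0731).

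Il20rb, a receptor chain for interleukins 19, 20 and 24, read 5.85, 5.84 and 6.0 in hSRY-OFF and 6.54, 6.87 and 7.23 in hSRY-ON hearts in one probe, a log2 fold change of 0.98 (SE 0.18, limma adjusted p = 0.00696). The groups did not overlap there, but its other tested probe had a log2 fold change of 0.01 (adjusted p = 0.982). Il20ra, its partner chain, had a log2 fold change of -0.39 (adjusted p = 0.117). Il3ra, a chain of the interleukin 3 receptor, read 6.72, 6.65 and 6.73 against 7.23, 6.91 and 7.24, a log2 fold change of 0.43 (SE 0.13, adjusted p = 0.0476). The groups did not overlap, and the threshold was lost without any heart but hSRY-ON replicate 2 (adjusted p 0.0671 to 0.145). With all hearts kept it passed in 3 of 10 other settings, with an adjusted p of up to 0.615 without normalization between arrays.

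Il1rap, the shared accessory chain of interleukin 1 receptors, had a log2 fold change of 0.43 (limma adjusted p = 0.113). Il11ra1, the receptor chain of interleukin 11, had 0.17, Il27ra had -0.20 and -0.01 in its 2 probes, and Il28ra (now Ifnlr1), a lambda interferon receptor, had 0.08 and 0.14. None of these passed the threshold. Il18bp, a secreted inhibitor of interleukin 18, had a log2 fold change of -0.37 (adjusted p = 0.126).

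The rule also took symbols that name neither a cytokine nor a receptor. Il4i1, an amino acid oxidase of antigen-presenting cells, read 5.64, 5.86 and 6.03 in hSRY-OFF and 5.28, 5.21 and 4.79 in hSRY-ON hearts. It was above background on no hSRY-ON array and was at least 1.43-fold lower (limma adjusted p = 0.0167). It met the filter through its hSRY-OFF hearts alone, so the fall is not separate support. The adjusted p was 0.0759 without background correction and 0.0523 with the replicate number as a block. Il1rl1l (now Tmed1), a trafficking protein, had a log2 fold change of -0.17 and did not pass.

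Other genes of cytokine signalling, outside the members, were changed in 16 of 69 tested probes (23.2%, beside 27.5% of all). Of these, 5 rose and 11 fell, while of all tested probes 13.8% rose and 13.7% fell. The median log2 fold change of the 69 was 0.06. Seen by group, among 7 tested Janus kinase probes 2 rose and 2, both of Jak3, fell. One Jak2 probe rose by 0.78 on the log2 scale and the other tested one had 0.47 (limma adjusted p = 0.14), while 1 of 3 tested Tyk2 probes rose, by 0.69, and the others had -0.02 and -0.06. Among NF-kappaB genes 2 of 11 tested probes rose, Nfkbia by 0.84 and Nfkbiz by 1.33, and 1 probe of Ikbkg, a kinase subunit, fell by 0.40, while its other tested probe had 0.10. Related receptor chains and ligands fell in 4 of 16 tested probes, with log2 fold changes of -1.0 and -0.95 for the growth hormone receptor Ghr and -0.49 for the cytokine Ctf1, and the prolactin receptor Prlr was above background in no hSRY-ON heart. The remaining one that passed, a Csf1r probe, rose by 1.30, while the other tested Csf1r probe had 0.40 (limma adjusted p = 0.408). Among 10 tested STAT probes, 4 probes of 3 genes fell, Stat5a among them, and 0 rose. Of the SOCS inhibitors, none of 10 tested probes passed the threshold.

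These are bulk hearts, in which fewer cells of a type and less RNA per cell cannot be told apart. Of all tested probes, 13.8% rose and 13.7% fell. Macrophage markers rose in 9 of 14 tested probes (C1qa, C1qb, C1qc, Cd14, Cd163, Cd68, Csf1r, Lyz2 and Mrc1) and none fell. The tested ones that did not pass had log2 fold changes of -0.21 (Emr1), -0.37 (Ly6c1), 0.19 (Fcgr1), 0.31 (Lyzs) and 0.40 (the other Csf1r probe). The Cd163 probe that rose met the filter through its hSRY-ON hearts alone, so its rise is not separate support. The summed intensity of the macrophage list ran from 8250 to 10039 without and from 13649 to 14739 with active SRY, while Itgam was at background. The brightest probes in that sum were Ly6c1, at 11.13 to 11.85, and Lyz2, at 10.68 to 12.12, so it leans on these. T cell markers fell in 2 of 5 tested probes (Cd3d and Cd3g). Lck, Ptcra and Thy1 had log2 fold changes of 0.12, -0.02 and -0.19 and did not pass. Summed intensities of the T cell list were 2099 to 2392 against 1680 to 2337. Most of each sum was the Thy1 probe, which read 10.24 to 10.89. Of the T cell genes, 8 of 14, Cd3e and Cd4 among them, were above background on no array. Endothelial markers fell in 4 and rose in 1 of 8 tested probes, and granulocyte markers rose in 2 of 6 (Lcn2 and Retnlg). The Lcn2 probe, too, met the filter through its hSRY-ON hearts alone. S100a8, S100a9, Camp and Ltf had log2 fold changes of 1.10, 0.58, 0.33 and 2.35 and did not pass. S100a8, S100a9, Camp and Retnlg were highest in hSRY-ON replicate 3. Platelet markers other than Cxcl4 (now Pf4), which was counted among the members, passed in none of 6 tested probes. Those of B cells and natural killer cells passed in none of 1 and 1. Cardiomyocyte genes were present in every heart, with 3 of 7 probes lower. Smooth muscle markers rose in 4 of 9 probes, all of Acta2. Myh11, Pdgfrb and Rgs5 had log2 fold changes of -0.42, -0.43 and -0.57 and did not pass. Cspg4 and Kcnj8 had 0.47 and 0.66 and did not pass either. Epicardial markers rose in 2 of 6 probes (Krt8 and Krt19), while Upk3b probes had -0.04, -0.13 and -0.08 and Msln 0.36, without passing. Fat markers rose in 2 of 4 (Ucp1 and Adipoq), with Cidea at a log2 fold change of -1.05 (limma adjusted p = 0.0691) and Cfd at 1.26 (adjusted p = 0.0818). Fibroblast markers rose in 1 and fell in 1 of 9. Among erythroid markers Hbb-b1 fell, 1 of 5, the liver list had 1 tested probe, Ttr, which rose, with Alb, Afp and Serpina1a above background on no array, and mast cell and dendritic cell markers passed in none of 4 and 3 tested probes. Ucp1, a gene of brown fat, read 4.64, 5.03 and 8.88 in hSRY-OFF against 10.81, 8.80 and 9.94 in hSRY-ON hearts, so that the groups overlapped. The part of these cells in the values of the chemokines, interleukins and receptors was not tested.

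In hSRY-ON replicate 1, Scgb1a1, a gene of airway club cells, read 13.74, and in the other hearts 4.53 to 6.52. Of the other lung epithelial markers, Nkx2-1 and Sftpa1 were above background on no array, Sftpc read 4.83 in that heart, and the Sftpb probes read 5.61 and 5.88. One Ltf probe, at 11.44, and one Lyz1 probe, at 7.63, also stood highest in that heart. Cxcl15 and Cxcl17, chemokines of lung and mucosal epithelium, were above background in that heart alone, at 6.05 and 6.98, and neither was tested. Without this heart, 9 member probes rose and 7 fell, 28.6% of 56 tested, beside 17.9% of all tested probes. Across the 25 differentially expressed members, hSRY-ON replicate 3 was the hSRY-ON heart nearest to the hSRY-OFF hearts in 14 (56.0%), and in 51.1% of all differentially expressed probes.

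Of the 25 probes, 12 probes of 8 genes were tested and differentially expressed in each of 16 other settings, namely probes of Il15, Il15ra, Cxcl16, Cxcl12, Il13ra1, Il20rb, Il10rb and Il2rg. The Il17ra probe, above background in no hSRY-OFF heart, was tested in 11 settings and passed in those. It met the filter through its hSRY-ON hearts alone, so passing under a filter is not separate support. An Il15ra probe, above background in 1 hSRY-ON heart, was tested in 15 settings and passed in those. Il17ra could be tested only while all its hSRY-ON hearts were kept, so its stability against leaving one out is not known. The other 11 lost the threshold in at least 1 setting. Among them, Ccl11 and Il4i1 could be tested only while all their hSRY-OFF hearts were kept. With all hearts kept, Ccl6, Ccl9, Ccl21a, Ccl21c, Cxcl4, Il17rc and Il3ra lost it with no probe filter. Ccl11, Ccl25, Il4i1 and Il3ra lost it without background correction, and Ccl25, Cxcl4, Il17rc and Il3ra without normalization between arrays. No differentially expressed probe changed direction in any of the settings.

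**Figure D5:**
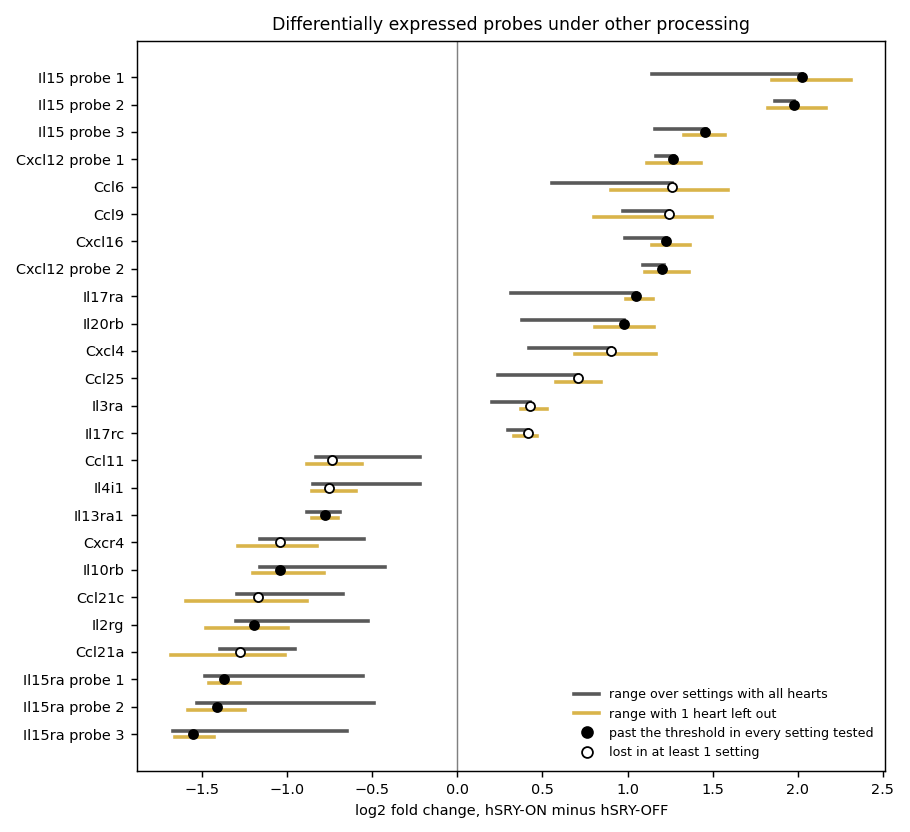
Log2 fold change (x axis, hSRY-ON minus hSRY-OFF) of the 25 differentially expressed member probes (y axis), with the range over 10 settings that kept all hearts and over 6 that left out 1 heart. Filled points, 14 in number, passed the threshold in every setting they were tested in and open points lost it in at least 1.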

How the data were processed

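Hearts of 3 hSRY-ON and 3 hSRY-OFF mice were grouped by the sample labels; the methods give 3 mice per group. The authors deposited non-normalized mean bead intensity for each probe and array, together with deposited detection p-values. The bead summary software, slide and scan were not given in the sources used here. Submitters' processing notes name limma, and the methods name TCC, which was not used here.

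With R 4.3.3 and limma 3.58.1, neqc was run with its default offset of 16, which covers background correction (negative controls inferred from detection p-values), quantile normalization and the log2 step. Probes with a detection p-value under 0.05 on at least 3 of 6 arrays were fitted with lmFit and eBayes, group as the only term. Benjamini-Hochberg adjustment of the two-sided p-values spanned the 12970 probes tested. The steps were tested on simulated data. Between 47.2% and 51.3% of probes were above background on each array, and the number of arrays limits the precision. The alternatives changed background correction, offset, normalization, probe filter, eBayes options and a replicate block, and left out each heart.

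Members and lists were chosen with earlier results of these data known. Named are all differentially expressed member probes and the other probes of their genes, the 12 other tested probes of highest mean, those with an unadjusted p under 0.05, and probes above background on all arrays of one group and none of the other. Other members (Il1b, Il6, Il18, Il33, Cx3cr1 and undetected genes) were named after their values were seen. Promoter windows came from RefSeq for 100 of 131 member genes and 14 of the 20 differentially expressed ones. Windows were not at hand for Ccl11, Ccl21c, Cxcl16, Il10rb, Il15 and Il17ra. Shared runs in Ccl6 and Ccl9 were marked after the sequences had been seen. Python 3.11.15 with matplotlib 3.10.9 made the plots.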

Additional observations from a re-analysis of the deposited data

How the results depend on the processing

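Without normalization between arrays, 1897 probes of the whole table were differentially expressed in place of 3567, the median log2 fold change of all probes moved to -0.12, and the share of higher calls fell from 50.1% to 38.5%. Leaving out 1 heart gave 2206 to 3669 probes. Of the members, 14 rose and 11 fell, and with no probe filter 9 rose and 9 fell, 9.89% of 182 beside 12.4% of all probes, in place of 42.4% beside 27.5%. Leaving out 1 heart gave 9 to 11 that rose and 6 to 10 that fell. The fewest risers came without hSRY-OFF replicate 1 or hSRY-ON replicate 1, and the fewest fallers without hSRY-OFF replicate 2. Members that passed were then 28.6% to 38.9% of those tested, beside 17.4% to 28.8% of all tested probes. Of the other pathway probes, 16 were called, and 6 (without hSRY-OFF replicate 1) to 20 (without hSRY-OFF replicate 3) with 1 heart left out. The cause was not tested. With the replicate number as a block, 24 member probes passed (15 higher, 9 lower), 40.7% beside 21.9% of all tested probes. Of the 25, 21 were kept. The deviations of same-numbered hearts from their group means correlated at -0.02, 0.04 and -0.07. With 3 hearts per group such values cannot show whether hearts of the same number share a litter or slide, so pairing is uncertain. No differentially expressed member reversed. Reversed values were all of members that had not passed. Without normalization, the log2 fold change was -0.0488 for Cxcl1, -0.0503 for Il20rb and -0.0497 for Il28ra. Without background correction Il20rb was at -4.13e-05, and with median scaling Il27ra was at 0.00714. With 1 heart left out, the values ran from -0.10 to 0.767 for Cx3cr1, -0.168 to 0.318 for Cxcl1, -0.129 to 0.124 for Il13, -0.267 to 0.0568 for Il17rd, -0.114 to 0.207 for Il20rb, -0.254 to 0.124 for Il27ra, -0.205 to 0.322 and -0.0823 to 0.209 for the Il28ra probes and -0.408 to 0.129 for Il33. With 3 hearts per group and many members near background, small changes were not detectable.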
